A study of Homo sapiens with 6 samples.

Results

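Receptors for hematopoietic growth factors were compared in K562 cells that expressed wild-type C/EBPα, its p30 isoform or neither. The set was fixed by name and held 8 genes. CSF3R, CSF1R, CSF2RB, IL6R and IL6ST were taken as myeloid receptors, and EPOR, KIT and FLT3 as stem and erythroid receptors. A row was found in all 3 tables for 7 of the 8 genes, out of 17066 gene symbols in all, and FLT3 was not analysed here. K562 is a human leukemia line in long use that expresses erythroid genes. For its response to C/EBPα the paper cites work in a BCR-ABL positive line, and the part of BCR-ABL in the results below was not tested. The cells were stably transformed with a PiggyBac transposon that carried a doxycycline-inducible cassette, namely wild-type C/EBPα (CEBPA), the p30 isoform (P30) or an empty vector (CTR). The legend of the paper's western blot names both the full-length protein and p30 in the CEBPA line. The amounts of these proteins in the lines were not examined here. Each of the 3 groups had 2 replicates, and all 6 samples, CTR included, received 200 ng/ml doxycycline for 48 h. Each line is a separately made derivative of K562, so that differences between the lines and effects of the transgene cannot be told apart, and no library without doxycycline was analysed here.

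The authors estimated FPKM with Cuffdiff, that is, fragments scaled to the length of the transcript and to the number of fragments mapped. For each gene there is 1 value a group, into which the replicates were pooled. The values used here therefore have no replicate error, no test could be made from them, and FPKM do not show the depth of each sample. Every change below is a difference of log2(FPKM + 1), a scale on which 1 is 2-fold and which understates changes of genes near or under 1 FPKM. Ratios of the FPKM themselves are given beside it. Over all genes above 1 FPKM in either group, 14.0% were higher in CEBPA than in CTR by 2-fold or more and 6.92% were lower by as much. These shares were 1.02% and 0.613% for P30 vs CTR and 13.1% and 5.79% for CEBPA vs P30. The median change of all these genes was between -0.04 and 0.02. The 5 erythroid markers with a row, of 10, summed to 1480 FPKM in CTR cells, 596 in CEBPA cells and 933 in P30 cells. The 8 neutrophil and monocyte markers with a row, of 13, summed to 82.9, 10200 and 127 FPKM. The 8 lymphoid and stromal markers with a row, of 12, summed to 47.5, 32.6 and 62.5 FPKM, most of it EPCAM. Of these markers with a row, 0 were listed at 0 FPKM in any group. In CEBPA nearly all of the neutrophil and monocyte sum was LYZ, S100A8 and S100A9, and of the 7 such markers over 1 FPKM these 3 were at least 2-fold higher than in CTR. CD33 was 2-fold lower, with 30.8 FPKM in CTR cells, 14.8 in CEBPA cells and 38.9 in P30 cells, and ITGAM was highest in P30, with 2.59, 2.43 and 14.3 FPKM. The part of other cells in the results below was not tested. In these bulk samples a lower share of cells with a transcript and less of it per cell cannot be told apart.

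Growth factor receptors let a blood progenitor sense the cytokines that keep it alive and direct its lineage. CSF3R, CSF2RB, IL6R, IL6ST and EPOR belong to the cytokine receptor family, which has no kinase of its own and signals through Janus kinases (JAK) and STAT transcription factors. CSF1R, KIT and FLT3 are receptor tyrosine kinases of one family. CSF3R binds G-CSF, the cytokine of neutrophil production, CSF1R binds M-CSF, and CSF2RB is the signaling chain shared by the receptors of GM-CSF, IL-3 and IL-5. EPOR carries the erythropoietin signal on which red cell production depends.

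With wild-type C/EBPα the myeloid receptors were higher and the stem and erythroid receptors lower. In CEBPA vs CTR, 3 of the 5 myeloid receptors were at least 2-fold higher, where 14.0% of all genes were, and the other 2 were higher by less. The 2 stem and erythroid receptors were both lower, EPOR by over 2-fold. The median change was 1.33 for the myeloid receptors and -1.04 for the stem and erythroid receptors, a difference of 2.37 on the log2 scale. For P30 vs CTR, where 1.02% of all genes were at least 2-fold higher, 2 of the 5 myeloid receptors were, CSF1R and CSF2RB. The medians were 0.08 and -0.24, and the difference was 0.32. The 0.08 is the change of IL6R, which was under 1 FPKM in both groups, and KIT was under 1 FPKM in every group. Over the members above 1 FPKM in either group, the myeloid median was 0.58. EPOR, the only other such member, changed by -0.44. CSF1R and CSF2RB passed this filter only through P30, where they were higher, and IL6R was left out. The 0.58 thus depends on the filter and is no independent support for a change. In CEBPA vs P30, CSF3R and IL6R were at least 2-fold higher, as were 13.1% of all genes, and CSF2RB and EPOR lower, as were 5.79%. Here the medians were 0.57 and -0.80, with a difference of 1.38. IL6ST is expressed in most cell types, and without it the difference was 3.34 for CEBPA vs CTR, 0.88 for P30 vs CTR and 2.47 for CEBPA vs P30. With 2 genes in the second class, these medians describe the 7 genes and no wider group.

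**Figure D1:**
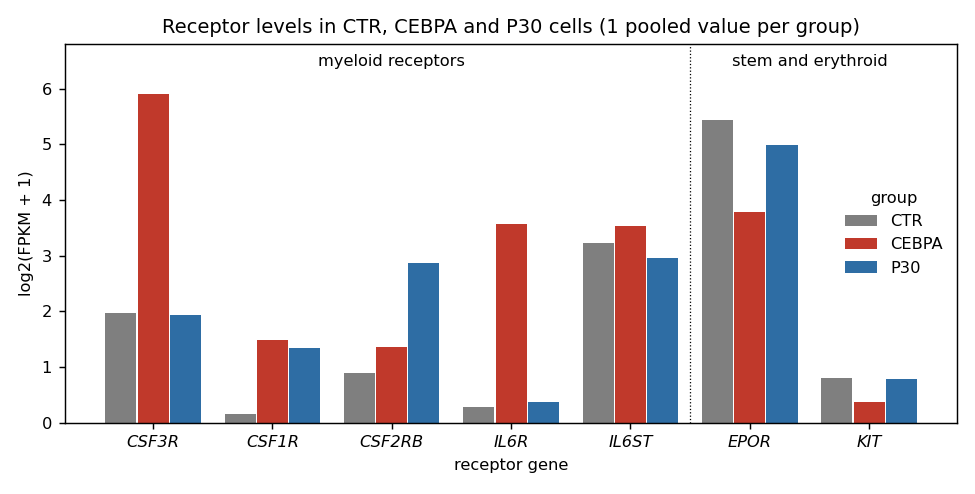
Levels of the 7 receptor genes as log2(FPKM + 1), with 1 bar per gene for each of the CTR, CEBPA and P30 groups and no error bars, since replicates were pooled. CSF3R and IL6R stand out in CEBPA at 5.91 and 3.56, CSF2RB is highest in P30 at 2.86, and EPOR is lowest in CEBPA at 3.79.

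CSF3R (ENSG00000119535), the receptor of G-CSF, lies on the minus strand of chromosome 1, at chr1:36931644-36948879 in GRCh37. It had 2.91 FPKM in CTR cells, 59.0 in CEBPA cells and 2.80 in P30 cells. CTR and P30 thus stood at nearly the same low level, while CEBPA was 20.3-fold above CTR and 21.0-fold above P30. The log2 change was 3.94 for CEBPA vs CTR, -0.04 for P30 vs CTR and 3.98 for CEBPA vs P30. Of 13673 genes compared for CEBPA vs CTR, 128 were as much higher or more, CSF3R included. Its level exceeded 15.4% of the genes over 1 FPKM in CTR and 86.3% of those in CEBPA, so that it stood low in the former group and high in the latter. The 3 genes with the most similar levels over the 3 groups, by Euclidean distance of log2(FPKM + 1), were RP11-696N14.1 (distance 0.454), OSR2 (0.494) and C3AR1 (0.555), the gene of a receptor for complement. C3AR1 had 2.42 FPKM in CTR cells, 75.0 in CEBPA cells and 3.99 in P30 cells.

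The sequence upstream of CSF3R is shown because CSF3R had the largest log2 change of the members for CEBPA vs CTR with a pseudocount of 1. With a pseudocount of 0.1 the change of IL6R was larger, at 5.10 against 4.29 for CSF3R, as was its ratio of FPKM. RefSeq (GRCh38.p14) gives CSF3R a pair of transcription starts, and the 250 bases before the upstream one matched GRCh37 exactly, at chr1:36948916-36949165 on the minus strand. Capitals mark the matched letters, here of C/EBP sites, on either strand. The long site was searched as TTGCNNAA and the short one as GCAAT, and the matches shown do not overlap.
CSF3R upstream start: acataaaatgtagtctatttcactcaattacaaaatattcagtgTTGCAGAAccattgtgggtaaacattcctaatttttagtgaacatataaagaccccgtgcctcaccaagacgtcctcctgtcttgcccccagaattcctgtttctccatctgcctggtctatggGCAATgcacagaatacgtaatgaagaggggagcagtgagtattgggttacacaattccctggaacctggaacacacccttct
The long site was found in 9.05% and the short site in 21.3% of 35114 RefSeq windows of this length, so that a match is a description and not a binding site. The window of the downstream start also held a short site, 46 bases before that start, and a PU.1 core, searched as GAGGAA and present in 23.6% of windows.
CSF3R downstream start, short C/EBP site: tcggaaggtgttGCAATccccagcccccg
CSF3R downstream start, PU.1 core: gctccttcctggGAGGAAggggctgcctgt
These stretches lie at chr1:36948544-36948572 and chr1:36948608-36948637, on the minus strand of GRCh37. All 250 bases of the downstream window are annotated as untranslated region of transcripts. The table held 9 windows of 7 members, FLT3 included and CSF2RB not. Of these, only the windows of CSF3R held a C/EBP site of these letters, and PU.1 cores were also found in windows of CSF1R, IL6R and FLT3.

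IL6R and IL6ST form the IL-6 receptor. IL6R binds the cytokine, and IL6ST (gp130) carries the signal and is shared with the receptors of LIF, oncostatin M and IL-11. IL6R (ENSG00000160712, chr1:154377669-154441926, plus strand) had 0.217 FPKM in CTR cells, 10.8 in CEBPA cells and 0.290 in P30 cells, a log2 change of 3.27 for CEBPA vs CTR and 3.19 for CEBPA vs P30. As ratios of FPKM, CEBPA was 49.7-fold above CTR and 37.2-fold above P30, both ratios over a value below 1 FPKM. IL6ST (ENSG00000134352, chr5:55230923-55290850, minus strand) had 8.35, 10.6 and 6.78 FPKM in CTR, CEBPA and P30. It differed by 0.31 for CEBPA vs CTR and by -0.27 for P30 vs CTR, both under 2-fold. The IL6R to IL6ST ratio of FPKM, which is per length, was therefore 0.0260 in CTR, 0.0428 in P30 and 1.02 in CEBPA. The transcript of the binding chain was scarce beside that of the signaling chain in CTR and P30 and about equal to it in CEBPA. The proteins were not measured here. The genes most alike to IL6R were SYNE2 (distance 0.083), C1orf101 (0.126) and SKAP1 (0.201).

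CSF1R was at least 2-fold higher than in CTR in both CEBPA and P30. CSF1R (ENSG00000182578, chr5:149432854-149492935, minus strand) had 0.111 FPKM in CTR cells, 1.79 in CEBPA cells and 1.54 in P30 cells. Its log2 change was 1.33 for CEBPA vs CTR and 1.19 for P30 vs CTR, comparisons that share the CTR libraries, and only 0.13 for CEBPA vs P30. These correspond to FPKM ratios of 16.1 and 13.9 over a CTR value close to 0, and the level stayed low in all 3 groups. Between P30 and CTR, where 1.02% of genes were at least 2-fold higher, 86 of 12395 genes were as much higher as CSF1R or more, itself included. Its nearest genes were RGS18 (distance 0.221), a regulator of G protein signaling found in blood cells, TMEM154 (0.274) and RP4-753P9.3 (0.277). The window of its downstream RefSeq start held a pair of adjoining PU.1 cores, at chr5:149466118-149466146 on the minus strand of GRCh37. They lie in the 53 bases of the window nearest the start, which are annotated as untranslated region of transcripts. The cores are shown because SPI1, the gene of PU.1, was higher in P30.
CSF1R downstream start, PU.1 cores: cccaaggagGAGGAAGAGGAAaacaagac
SPI1 had 41.3 FPKM in CTR cells, 78.2 in CEBPA cells and 89.4 in P30 cells, a log2 change against CTR of 0.90, under 2-fold, in CEBPA and of 1.10 in P30. PU.1 cores, present in 23.6% of windows, were also found for CSF3R and IL6R, which changed by -0.04 and 0.08 for P30 vs CTR. A link between SPI1 and CSF1R was not tested.

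CSF2RB was highest in P30 and under 2-fold different between CEBPA and CTR. CSF2RB (ENSG00000100368, chr22:37309670-37336481, plus strand) had 0.872 FPKM in CTR cells, 1.57 in CEBPA cells and 6.24 in P30 cells. P30 was 7.16-fold above CTR and 3.96-fold above CEBPA by FPKM. The log2 change was 1.95 for P30 vs CTR and -1.49 for CEBPA vs P30, against 0.46 for CEBPA vs CTR. Between P30 and CTR 31 of 12395 genes were as much higher or more, CSF2RB included. A level in P30 at least 2-fold above both other groups, a pattern looked up after the values of CSF2RB were seen, was found in 40 of 13693 genes (0.292%). The genes nearest to CSF2RB were DNAJB5 (distance 0.629), OR56B1 (0.668) and LINC00977 (0.747), farther off than those of the other members described here. A pseudogene copy, CSF2RBP1, is annotated nearby on chromosome 22 (chr22:37346571-37349764), and the value of CSF2RB is uncertain where reads could be assigned to either. Of the ligand-binding partners of CSF2RB, IL5RA had 0.0226 FPKM in CTR cells, 3.83 in CEBPA cells and 0.747 in P30 cells, and CSF2RA and IL3RA were not analysed here. The transcript of the IL-5 binding chain was thus highest in CEBPA, while that of the chain that signals for it was highest in P30.

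**Figure D2:**
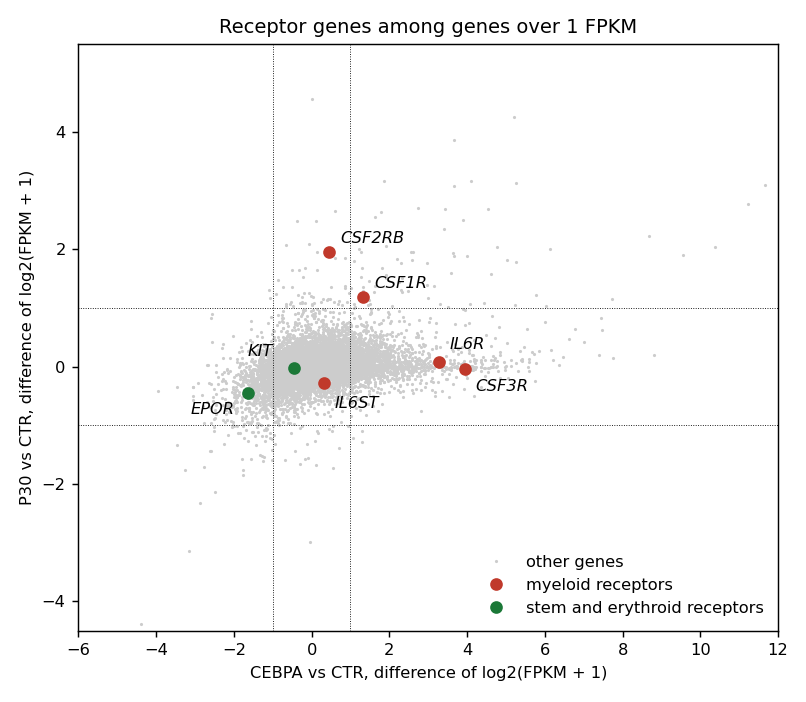
Change for CEBPA vs CTR (x axis) against change for P30 vs CTR (y axis), both as differences of log2(FPKM + 1), for the 7 receptors (large points) and the other genes over 1 FPKM in any group (grey points, 2 of 13693 genes outside the axes), with dotted lines at 2-fold. Both axes use the CTR values. CSF3R and IL6R lie far right at 3.94 and 3.27 with almost no change in P30, CSF2RB lies high at 1.95, CSF1R is past 2-fold on both axes, and EPOR is past 2-fold to the left.

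EPOR was the most abundant of the 7 receptors in CTR and P30. EPOR (ENSG00000187266, chr19:11487883-11495018, minus strand) had 42.2 FPKM in CTR cells, 12.9 in CEBPA cells and 30.8 in P30 cells. CTR was 3.28-fold and P30 2.39-fold above CEBPA by FPKM. The log2 change of CEBPA was -1.64 against CTR and -1.20 against P30, and that of P30 against CTR was -0.44, under 2-fold. In CEBPA vs CTR 201 of 13673 genes were as much lower or more, EPOR included. Its nearest genes were CXXC5 (distance 0.125), NECAB3 (0.160) and NME3 (0.181). The erythroid factors GATA1 (185, 53.1 and 193 FPKM in CTR, CEBPA and P30) and KLF1 (160, 42.3 and 115 FPKM) were also at least 2-fold lower in CEBPA than in each of the other groups. The EPOR window held a site for GATA factors, searched as AGATAA and present in 9.17% of all windows, which is shown on the strand of the gene, where it reads TTATCT.
EPOR, GATA site: cccgccaggcacTTATCTctacccaggctg
This stretch lies at chr19:11495051-11495080 in GRCh37, within the 224 of 250 bases of the window that are annotated as untranslated region of transcripts.

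KIT, the receptor of stem cell factor, was below 1 FPKM in every group. KIT (ENSG00000157404, chr4:55523434-55606949, plus strand) had 0.757 FPKM in CTR cells, 0.291 in CEBPA cells and 0.719 in P30 cells. Its log2 change of -0.44 for CEBPA vs CTR was under 2-fold, although the FPKM in CTR was 2.60 times that in CEBPA. With a pseudocount of 0.1 the change was -1.13, so that whether KIT was 2-fold lower depended on the pseudocount.

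The 7 receptors together summed to 55.4 FPKM in CTR cells, 96.9 in CEBPA cells and 49.1 in P30 cells. EPOR made up 76.2% of the sum in CTR and 62.6% in P30, but 13.3% in CEBPA. CSF3R made up 5.25% in CTR, 5.71% in P30 and 60.9% in CEBPA. EPOR stood 14.5-fold above CSF3R in CTR and 11-fold in P30, while in CEBPA CSF3R stood 4.59-fold above EPOR. CSF3R was thus the most abundant of the 7 in CEBPA, and EPOR in CTR and P30. In P30 the share of CSF2RB was 12.7%, against 1.57% in CTR and 1.63% in CEBPA.

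**Figure D3:**
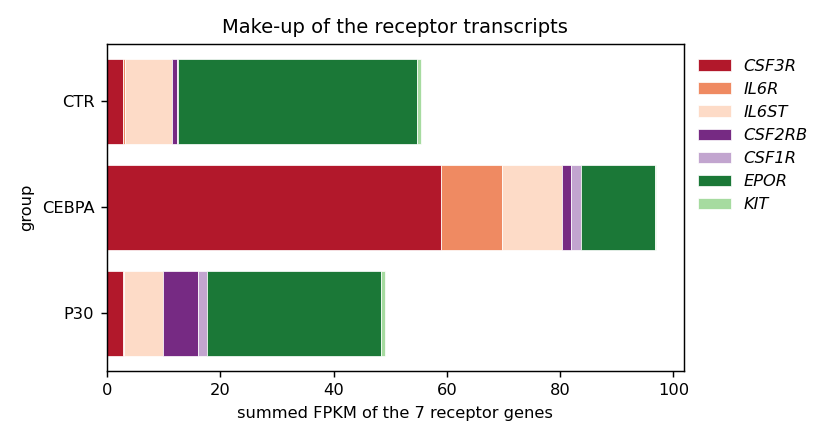
Summed FPKM of the 7 receptor genes (x axis) in CTR, CEBPA and P30 (1 pooled bar each), divided by gene. EPOR fills 76.2% of the CTR bar and 62.6% of the P30 bar, CSF3R fills 60.9% of the CEBPA bar, and CSF2RB is visible chiefly in P30.

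Ligands of these receptors were examined next. Of 14 ligand genes listed, 5 had a row for CEBPA vs CTR and 3 were over 1 FPKM, and 2 of the 3 were at least 2-fold higher in CEBPA, where 14.0% of all genes were. IL6, the ligand of IL6R, had 0.394 FPKM in CTR cells, 6.24 in CEBPA cells and 0.371 in P30 cells. KITLG, the ligand of KIT, had 0.128, 2.74 and 0.0154 FPKM. CSF1, the ligand of CSF1R, had 2.2, 3.97 and 1.46 FPKM, which was past 2-fold only for CEBPA vs P30 (log2 change 1.01). IL6 and its binding receptor IL6R were thus both highest in CEBPA. KITLG was highest in CEBPA, where its receptor KIT was lowest. The median change of the ligands over 1 FPKM was 1.73 for CEBPA vs CTR, and 0.64 over the 5 with a row. IL6 and KITLG, the 2 that were at least 2-fold higher, passed the filter only through CEBPA. The count of 2 of 3 and the 1.73 thus depend on the filter.

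Other chains that pair with gp130 were OSMR, the oncostatin M receptor, with 0.424 FPKM in CTR cells, 2.17 in CEBPA cells and 0.877 in P30 cells, and LIFR with 1.17, 3.29 and 1.30 FPKM. Only OSMR was past 2-fold on the log2(FPKM + 1) scale, for CEBPA vs CTR, with a change of 1.16 against 0.98 for LIFR. By FPKM, LIFR in CEBPA was 2.82-fold above CTR and 2.53-fold above P30, and OSMR 2.48-fold above P30. Which of these low levels were past 2-fold thus depended on the pseudocount. IL11RA was not analysed here.

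Downstream of the receptors, the JAK and STAT genes over 1 FPKM, 9 of 11 listed, had a median change of -0.23 for CEBPA vs CTR. Of these 9, 1 was at least 2-fold higher and 0 lower, beside 14.0% and 6.92% of all genes. JAK2, the kinase bound by EPOR, had 9.42, 4.80 and 12.1 FPKM in CTR, CEBPA and P30, and STAT5A, the main STAT of the EPOR signal together with STAT5B, had 72.5, 40.3 and 95.2 FPKM. Both were past 2-fold lower for CEBPA vs P30, at -1.17 and -1.22, but not for CEBPA vs CTR, at -0.84 and -0.83. STAT5B had 68.2, 41.3 and 72.9 FPKM. STAT3, through which CSF3R and gp130 signal, had 67.2, 92.3 and 77.4 FPKM, under 2-fold in all pairs. With p30, 0 of the 9 genes were past 2-fold of CTR in either direction, where 1.02% of all genes were higher and 0.613% lower. Signaling was not measured, and whether the levels here and in the lists that follow depend on the receptors was not tested.

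Inhibitors of cytokine signaling and the proteases that shed receptors formed a list of 26 genes, of which 25 were over 1 FPKM for CEBPA vs CTR. In this pair 3 of the 25 were at least 2-fold higher and 4 lower, beside 14.0% and 6.92% of all genes, and the median change was 0.00. The feedback inhibitors CISH and SOCS1, which STAT5 is known to induce, were among the 4. CISH had 35.9 FPKM in CTR cells, 9.55 in CEBPA cells and 34.2 in P30 cells, and SOCS1 had 7.47, 1.58 and 7.07 FPKM. The phosphatase INPP5D (SHIP1), with 17.9, 7.02 and 23.6 FPKM, and the adaptor SH2B3 (LNK), with 23.7, 11.3 and 21.1 FPKM, were the others. SOCS2 and SOCS3 were within 2-fold, with SOCS3 at 13.4, 8.49 and 7.61 FPKM. The 3 that were higher in CEBPA were SOCS7, the ubiquitin ligase CBLB and ADAM17. ADAM17, which cleaves IL6R and CSF1R from the cell surface, had 11.7, 27.9 and 13.8 FPKM. For P30 vs CTR 1 of 25 was past 2-fold, where 1.02% of all genes were higher and 0.613% lower. It was the phosphatase PTPRC (CD45), with 22.8 FPKM in CTR cells, 51.4 in P30 cells and 30.1 in CEBPA cells.

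The list of STAT target genes had a median change of -0.59 for CEBPA vs CTR and -0.57 for CEBPA vs P30 over 16 genes, where the median of all genes was -0.01 and -0.04. In CEBPA vs CTR 4 of the 16 were at least 2-fold lower and 2 higher, beside 6.92% and 14.0% of all genes, and the share that was higher was close to that of all genes. PIM1, a survival kinase, had 273 FPKM in CTR cells, 73.8 in CEBPA cells and 325 in P30 cells. PIM2 had 74.4, 31.4 and 94.8 FPKM, and BCL2L1, an inhibitor of apoptosis that supports red cell precursors, had 82.2, 26.7 and 95.6 FPKM. CEBPB, with 29.1, 11.6 and 18.7 FPKM, was the other gene that was lower. MCL1, another inhibitor of apoptosis, and BCL6 were higher, with MCL1 at 77.4, 158 and 91.5 FPKM. With p30 the median change against CTR was 0.23 and 0 of 15 genes were past 2-fold, where 1.02% of all genes were higher and 0.613% lower.

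**Figure D4:**
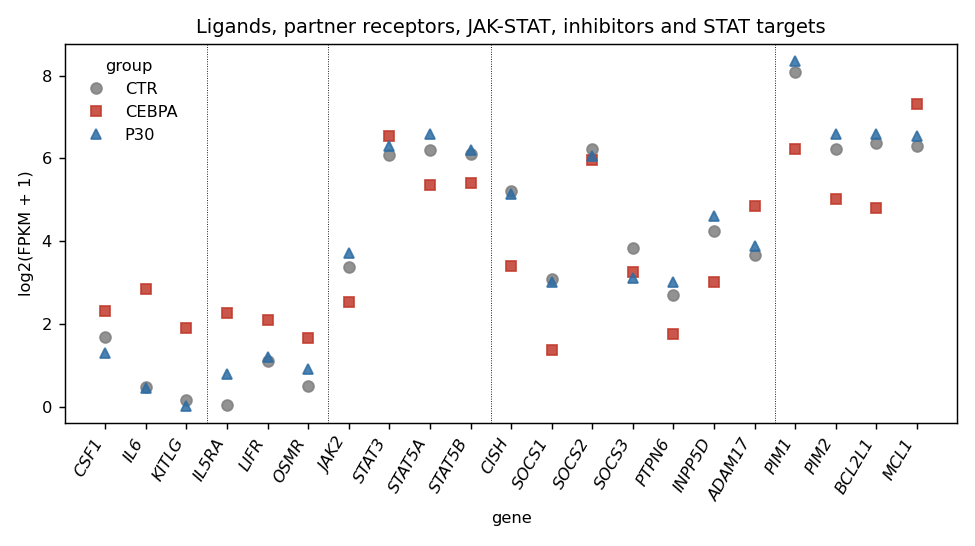
Levels as log2(FPKM + 1) of ligands, partner receptor chains, JAK and STAT genes, inhibitors with the protease ADAM17, and STAT targets (dotted lines divide these sets), with 1 point per group and gene and no error, since replicates were pooled. CISH, SOCS1, PIM1, PIM2 and BCL2L1 are lower in CEBPA than in CTR and P30, while IL6, KITLG and IL5RA are higher.

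Transcription factors that act on receptor genes were listed as well. Of 12 factors over 1 FPKM, 3 were at least 2-fold higher for CEBPA vs CTR (MEIS1, CEBPE and GFI1) and 4 lower (GATA1, GATA2, TAL1 and KLF1), beside 14.0% and 6.92% of all genes. Against CTR, 4 of 12 were higher in P30, namely SPI1, RUNX1, MYB and CEBPE, where 1.02% of all genes were. RUNX1 had 17.9 FPKM in CTR cells, 33.3 in CEBPA cells and 47.1 in P30 cells, and MYB had 40.4, 28.9 and 83.9 FPKM. MYB, a factor of dividing progenitors, shared with CSF2RB a level that was highest in P30 and at least 2-fold above both other groups.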

How the data were processed

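RNA-seq of 6 K562 samples was used, 2 each of CTR, CEBPA and P30. TopHat was used by the authors, with default settings, for alignment to hg19 and Cufflinks with Gencode for assembly, and the deposited FPKM were estimated with Cuffdiff. Each gene has 1 value a group, into which both replicates were pooled. The replicates came from separate sequencing runs, which cannot be examined in pooled values, and although the libraries were strand-specific, the strand setting of the estimates is not given in the sources used here. Of the 7 genes, 3 overlap a gene on the opposite strand (CSF1R, IL6R and IL6ST), so that shared reads are possible. FPKM do not show the depth of each sample, and since the values are pooled, no SD, interval or p-value is given. The authors tested the duplicates with Cuffdiff, and those calls were not used here.

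Changes are differences of log2(FPKM + 1), compared over genes above 1 FPKM in at least 1 of the 2 groups, with 2-fold as the limit of a call. The members and lists were chosen with earlier results of these data known. Named genes are the members, the list genes past 2-fold, partners of the receptors, and for members past 2-fold the 3 nearest genes by Euclidean distance. Other list genes were named after their values had been seen. Results on some list genes are not reported here. Repeated symbols were left out of comparisons over the 3 groups. The computation was tested on simulated data. Promoter windows are from RefSeq, without the bases after the start. Those of members other than KIT and FLT3 were matched exactly to GRCh37, the build of hg19. Gene positions are from Gencode lifted to GRCh37, a later release than the authors used. Python 3.11.15, numpy 2.4.6, pandas 2.3.3 and matplotlib 3.10.9 were used. The alternatives were pseudocounts of 0.1 and 0.01, no filter or a filter at 5 FPKM, centring on the median, summed rows, 1.5-fold calls, and other choices of the receptors.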

Additional observations from a re-analysis of the deposited data

How the results depend on the processing

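No paired analysis was possible because each column is 1 pooled value for a whole group, and for the same reason neither a replicate block nor leaving out each replicate was run. A log2 value was taken as moved past 0.2 and a count past 1.5 times, both working limits. For 51 results 177 values were recomputed, of which 124 kept within the limits, 53 moved and 0 reversed. Of 84 values of single receptors, 24 moved, all with another pseudocount, and 0 took the opposite sign. The causes of the moves were not tested.

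The difference between myeloid and stem and erythroid medians for CEBPA vs CTR was 4.58 with pseudocount 0.1 and 5.42 with 0.01. It was 3.34 without IL6ST and 2.97 with only members over 1 FPKM in any of the 3 groups. In P30 vs CTR it was 0.56, 0.67, 0.88 and 0.53 in the same order. For CEBPA vs P30 it was 1.79, 1.91, 2.47 and 1.77. The 0.53 includes IL6R, which was under 1 FPKM in both P30 and CTR and passed through its CEBPA level. Filtered on P30 and CTR alone, the myeloid median was 0.58 and EPOR changed by -0.44. That filter left out IL6R, and CSF1R and CSF2RB passed it only through their P30 level. With pseudocount 0.1 the ligand median was 3.64 for CEBPA vs CTR and 3.75 for CEBPA vs P30, the median of other cytokine receptors 1.06 and 0.99, and 200 genes were higher and 184 lower for P30 vs CTR. With no filter the ligand median was 0.64 for CEBPA vs CTR and 1.01 for CEBPA vs P30. In the filtered ligand medians, IL6 and KITLG passed only through their CEBPA level. Over 5 FPKM, 1216 genes were higher for CEBPA vs CTR, 81 for P30 vs CTR and 1080 for CEBPA vs P30. At 1.5-fold, 3275 were higher and 2539 lower for CEBPA vs CTR, 334 and 326 for P30 vs CTR, and 3025 and 2417 for CEBPA vs P30.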

Other observations

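Cytokine receptors outside the growth factor group were also often higher in CEBPA. Of 36 listed, 21 were over 1 FPKM for CEBPA vs CTR, and 9 of them were at least 2-fold higher and 3 lower, beside 14.0% and 6.92% of all genes, with a median change of 0.77. Among the 9 were 3 of the IL-1 receptor family, which carries inflammatory signals. IL18R1 had 2.31 FPKM in CTR cells, 39.7 in CEBPA cells and 3.09 in P30 cells. IL1RAP, a chain shared by some but not all receptors of that family, had 0.365, 8.49 and 0.455 FPKM, and IL1R1 had 4.18, 12 and 3.12 FPKM. IL4R, with 1.26, 16.9 and 4.10 FPKM, was the 1 of 17 genes past 2-fold for P30 vs CTR (log2 change 1.17). In that pair 1.02% of all genes were higher and 0.613% lower. IL13RA1, the partner of IL4R, had 10.9, 46.8 and 12.5 FPKM. IFNGR1 (16.8, 35.5 and 17.8 FPKM) and PRLR were also higher for CEBPA vs CTR, PRLR being listed at 0 in CTR. The 3 that were lower were IL2RG, IL10RA and TNFRSF1B. IL2RG, the shared chain of lymphoid cytokine receptors, had 19.5, 6.41 and 10.5 FPKM, and IL10RA had 7.21, 2.17 and 6.86 FPKM.

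Of 25 adaptors and kinases that act after the receptors, 2 were at least 2-fold higher for CEBPA vs CTR and 0 lower, a smaller share than the 14.0% and 6.92% of all genes. FGR, a SRC-family kinase of myeloid cells, had 0.0486 FPKM in CTR cells, 53.9 in CEBPA cells and 0.219 in P30 cells, a log2 change of 5.71 for CEBPA vs CTR. The other was MAP2K1, a kinase of the MAP kinase cascade, with 26.5, 54.2 and 27.5 FPKM. For CEBPA vs P30, 1 of the 25 was at least 2-fold higher and 3 lower, beside 13.1% and 5.79% of all genes. Those lower were GAB3, PIK3CD and VAV1, with changes from -1.02 to -1.30. For P30 vs CTR 1 of 24 was past 2-fold, where 1.02% of all genes were higher and 0.613% lower. It was PIK3CG, the catalytic subunit of PI3-kinase gamma, with 6.95 FPKM in CTR cells, 15.5 in P30 cells and 12.8 in CEBPA cells.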
